A study of Mus musculus with 6 samples.

Results

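The 10 genes described here are nuclear genes that encode regulators of mitochondrial biogenesis. They are the coactivators Ppargc1a and Ppargc1b, the estrogen-related receptors Esrra, Esrrb and Esrrg, and the nuclear factors Nrf1 and Gabpa. The others are the mitochondrial transcription factors Tfam and Tfb2m and the mitochondrial ribosomal RNA methyltransferase Tfb1m. All 10 were chosen by symbol from the 24411 genes of the count table, were listed there, and passed the filter on low counts. RNA was sequenced from EDL (extensor digitorum longus), a hindlimb muscle made mostly of fast-twitch fibres, of 50-week-old mice labelled as strain C57BL/6J. Both groups carried floxed alleles of Akt1 and Akt2, the kinases downstream of the insulin receptor. The 3 mAktDKO mice carried in addition the Mlc1f-Cre knock-in, which deletes the floxed genes in skeletal muscle fibres, and the label of the 3 control floxed mice lists no Cre. This Cre is driven by a myosin light chain promoter of fast fibres, and deletion in satellite cells and other cells of the muscle was not measured here. The question was how the transcripts of these regulators differed between the genotypes.

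Mitochondria hold a small genome of their own, but nearly all of their proteins are encoded in the nucleus, so building them needs transcription in both places. PGC-1α (Ppargc1a) and PGC-1β (Ppargc1b) do not bind DNA. They are recruited by the estrogen-related receptors (ERRs), by nuclear respiratory factor 1 (Nrf1, a different protein from the stress factors encoded by Nfe2l1 and Nfe2l2) and by GABP, whose DNA-binding subunit is encoded by Gabpa, and these factors switch on genes of respiration and of mitochondrial gene expression. Tfam coats mitochondrial DNA and, with Tfb2m, starts its transcription, whereas Tfb1m methylates the small ribosomal RNA of mitochondria. In muscle the programme is best known for its response to endurance exercise.

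Total estimated counts were between 13738795 and 15445523 per mouse. Levels are given in CPM, counts scaled to the size of each library as corrected by the TMM method, and the floor of 3 counts lay between 0.180 and 0.227 CPM. In Akt2, the mAktDKO mice numbered 1 to 3 had 51.3, 49.1 and 52.7 CPM and the control floxed mice numbered 2 to 4 had 172, 133 and 143 CPM. Akt2 thus fell by 1.55 on the log2 scale (edgeR, adjusted p = 0.000923, and 0.0165 to 0.0208 without any one mAktDKO mouse). Akt1 was at 55.7 ± 3.89 and 66.2 ± 0.560 CPM (SD, n = 3 each), with every mAktDKO mouse below every control. Its log2 fold change was -0.25 (95% interval -0.43 to -0.068, adjusted p = 0.115 from edgeR), and -0.11 with library totals. Of the 10 fast fibre markers all had negative log2 fold changes (median -0.22), 4 of them at an unadjusted p under 0.05 (13.1% of all genes were lower), and their summed levels were 114917 to 128978 CPM against 132613 to 142618 CPM. Several other lists had positive medians, with 2 of 7 slow fibre, 4 of 5 adipocyte, 2 of 5 fibro-adipogenic and 3 of 4 leukocyte markers higher at an unadjusted p under 0.05 (11.4% of all genes were higher). The slow fibre markers had a median of 0.44 (6 of 7 higher, summed level 680 to 1317 CPM against 607 to 884 CPM), and the adipocyte markers had one of 1.04 (5 of 5 higher, 23.1 to 74.0 CPM against 15.1 to 37.0 CPM). For fibro-adipogenic markers it was 0.57 (5 of 5 higher, 18280 to 21736 CPM against 7284, 15736 and 18401 CPM in control mice 2 to 4). For leukocyte markers it was 0.58 (4 of 4 tested higher, 44.3 to 54.6 CPM against 30.6, 42.7 and 43.9 CPM). The low end of both control ranges was thus control mouse 2 alone. Among the controls this mouse was also the highest for Akt2 and for all regulators but Ppargc1a, Ppargc1b and Tfb1m. Whether the cell make-up of its sample had a part in these levels was not tested. The globin Hbb-bs was at 0 in each control floxed mouse and at 23.5, 9.21 and 10.04 CPM in the mAktDKO mice, the 1 marker with an adjusted p under 0.05 by edgeR, while its neighbour Hbb-bt had counts in all mice. Whether the groups differ in genetic background, at this locus or elsewhere, was not tested, and such a difference cannot be told apart from the genotype in any comparison below. Hbb-bs was therefore left out of the erythroid markers, whose other 4 genes had a median of 0.44 (4 of 4 higher, 139.8 to 296.7 CPM against 113.95 to 167.7 CPM). The medians were 0.014 for endothelial, 0.15 for Schwann cell, 0.084 for satellite cell and -0.040 for smooth muscle markers. Of the brown adipocyte markers none passed the filter, with summed levels of at most 0.888 CPM, and Ucp1 was at 0 in all mice. In whole muscle, fewer cells of a type and less RNA per cell cannot be told apart, and the part that other cells had in the values below was not tested.

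The means of the regulators did not all lie on the same side of the control means. Esrra, Ppargc1b, Esrrb and Tfam were lower in all 3 mAktDKO mice than in all 3 control floxed mice. Nrf1, Esrrg and Ppargc1a had higher means, with overlapping groups and 95% intervals of the log2 fold change that included 0. Gabpa, Tfb1m and Tfb2m lay close to the controls. At an adjusted p under 0.01, 0 of the 10 genes were called by edgeR's quasi-likelihood test, beside 0.0233% of the 12892 genes tested. At an adjusted p under 0.05, 1 of the 10 passed and was lower (Esrra), where 1.18% of all genes passed and 0.915% were lower. The 152 genes behind that share were 4, 3 and 5 without mAktDKO mouse 1, 2 or 3, and 145, 26 and 388 without control mouse 2, 3 or 4. DESeq2's Wald test called 1 of the 9 regulators with an adjusted p at 0.01, again Esrra, and 3.55% of the 9616 genes with one. At 0.05 it called 3 of the 9 regulators, Esrra, Ppargc1b and Esrrb, and 786 of the 9616 genes. At an unadjusted p under 0.05, 4 of the 10 were lower and 0 higher, against backgrounds of 13.1% and 11.4%. Scaling by library totals instead gave 3 lower (Ppargc1b, Esrra and Esrrb) and 3 higher (Ppargc1a, Esrrg and Nrf1), against 5.02% and 23.0%. Leaving out mAktDKO mouse 1 or control mouse 2 gave 4 lower and 2 higher (Esrrg and Nrf1), against 10.2% lower in both fits and 8.53% and 9.05% higher. Leaving out mAktDKO mouse 2 gave 3 lower (Ppargc1b, Esrra and Esrrb, without Tfam) and 1 higher (Ppargc1a), against 8.08% and 6.28%. The groups did not overlap for 4 of the 10, all lower in mAktDKO mice, where 31.1% of all genes tested did not overlap and 16.6% were lower without overlap. With library totals, Ppargc1b, Esrra and Esrrb stayed below the controls (6.91% of all genes), Tfam overlapped and Nrf1 was above them (26.5%). The median log2 fold change was -0.041 over the 10 genes and 0.017 over all genes tested. With library totals these were 0.097 and 0.16, so the sign of the first depends on the scaling and its distance from all genes does not (-0.058 and -0.059).

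**Figure D1:**
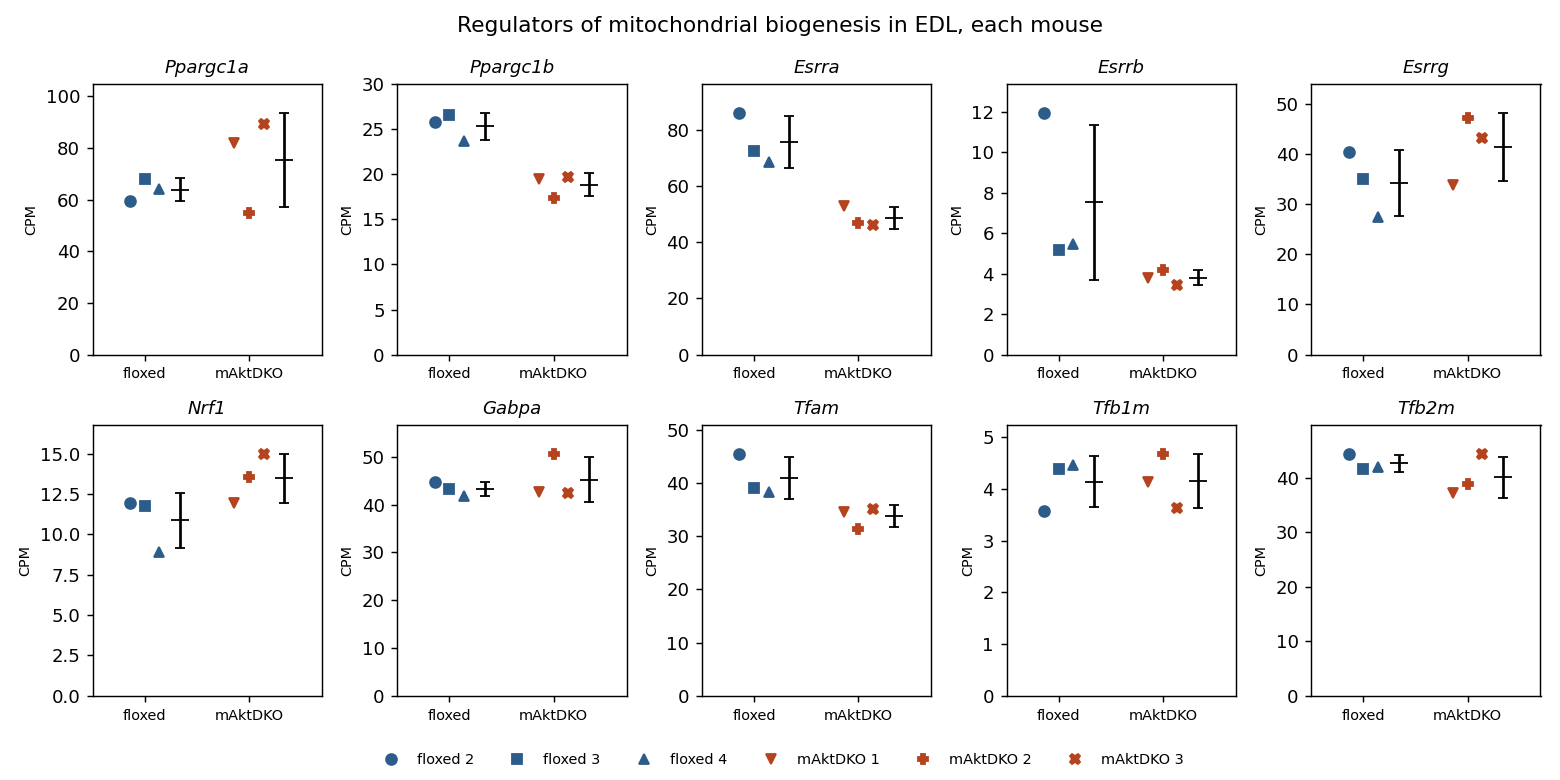
Level of each regulator in CPM (counts scaled to the TMM-corrected library size) on axes that start at 0, with 1 point per mouse and bars for mean ± SD of 3 mice. Points of the 2 groups are separate for Ppargc1b, Esrra, Esrrb and Tfam, and control floxed mouse 2 stands alone for Esrrb at 11.96 CPM.

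**Figure D2:**
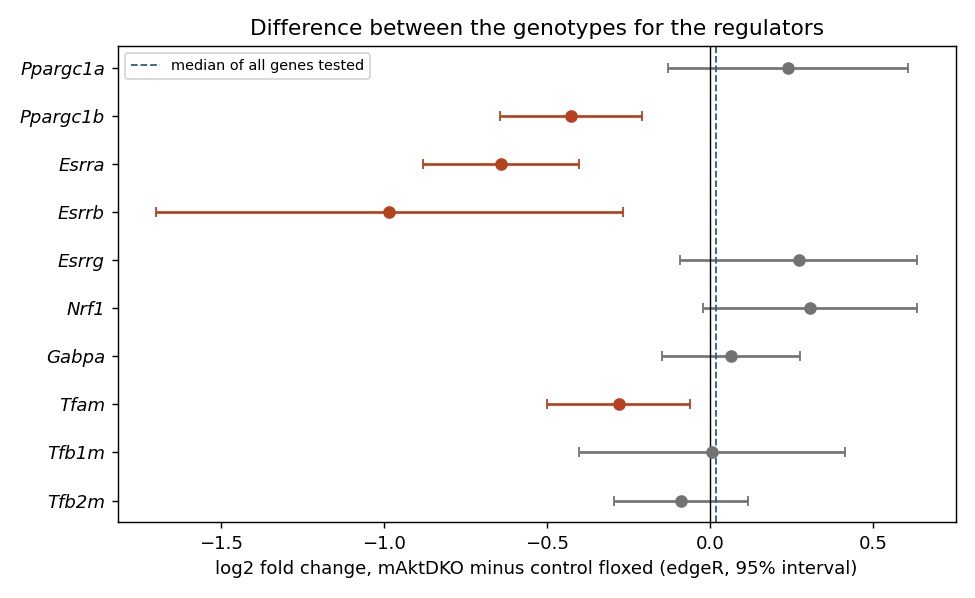
Log2 fold change of mAktDKO against control floxed mice from edgeR with its 95% interval, in colour where the groups do not overlap. The dashed line is the median of all genes tested (0.017), and the intervals of Ppargc1b, Esrra, Esrrb and Tfam lie below 0.

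The means of the coactivators lay on opposite sides of the controls. Ppargc1a (chromosome 5, 51454249 to 52115853 in RefSeq, GRCm38.p6, the source of the gene positions below) encodes PGC-1α, the exercise-inducible coactivator. It was at 82.0, 54.8 and 89.4 CPM in mAktDKO mice 1 to 3 and at 59.3, 68.1 and 64.0 CPM in control floxed mice 2 to 4. Both mAktDKO mice 1 and 3 were above every control, whereas mAktDKO mouse 2 was below every control, so the groups overlapped. The log2 fold change was 0.24 (standard error 0.16, 95% interval -0.13 to 0.61, adjusted p = 0.382 from edgeR). Without mAktDKO mouse 2 it was 0.43 with an adjusted p of 0.234 from edgeR, and without mAktDKO mouse 3 it was 0.085 with an adjusted p of 0.792. Among the 10 genes the SD of log2 CPM in mAktDKO mice was largest for Ppargc1a (0.38). Estimated counts are per gene, so its transcripts from alternative promoters were not resolved.

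Ppargc1b (chromosome 18, 61291445 to 61400756) encodes PGC-1β, the relative of PGC-1α that supports basal mitochondrial gene expression. It was at 19.5, 17.4 and 19.7 CPM in the mAktDKO mice and at 25.8, 26.6 and 23.7 CPM in the controls. Every mAktDKO mouse was below every control mouse, and the means were 18.9 ± 1.298 and 25.3 ± 1.499 CPM (SD, n = 3 each). The log2 fold change was -0.43 (standard error 0.096, 95% interval -0.64 to -0.21, adjusted p = 0.0598 from edgeR), which did not pass either threshold. DESeq2 gave an adjusted p of 0.0358.

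Of the ERRs, the orphan nuclear receptors that bind genes of oxidative metabolism and take PGC-1 coactivators in place of a hormone, Esrra had the smallest p of all 10 genes. Esrra (chromosome 19, 6910977 to 6922048) encodes ERRα. In the mAktDKO mice it was at 53.1, 47.0 and 46.0 CPM, and in the control mice at 86.2, 72.6 and 68.7 CPM. The highest mAktDKO mouse thus lay below the lowest control. Means were 48.7 ± 3.83 and 75.8 ± 9.18 CPM (SD, n = 3 each), and the log2 fold change was -0.64 (standard error 0.11, 95% interval -0.88 to -0.40, adjusted p = 0.0396 from edgeR). It was -0.54 without control mouse 2, the highest one, with an adjusted p of 0.0314 from edgeR. With the mAktDKO mice 1, 2 or 3 left out in turn, the adjusted p was 0.0966, 0.220 and 0.115, without control mouse 3 it was 0.0842, and with library totals it was 0.0573 (edgeR).

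Esrrb (chromosome 12, 86361117 to 86521628), which encodes ERRβ, had few counts, with 60, 70 and 50 counts in mAktDKO mice and 171, 71 and 72 in the controls. These corresponded to 3.80, 4.19 and 3.43 CPM and to 11.96, 5.18 and 5.44 CPM. All mAktDKO mice were below all controls, but control mouse 2 was far above the other controls. The log2 fold change of -0.98 (standard error 0.32, 95% interval -1.70 to -0.27, adjusted p = 0.115 from edgeR) became -0.48 without control mouse 2, with an adjusted p of 0.190, and DESeq2 gave an adjusted p of 0.0328 with all mice. Esrrg (chromosome 1, 187608510 to 188214885) encodes ERRγ, a receptor known for high levels in oxidative and slow-twitch muscle. It was at 33.9, 47.1 and 43.1 CPM in mAktDKO mice and at 40.4, 34.9 and 27.4 CPM in controls, and the groups overlapped. Its log2 fold change was 0.27 (standard error 0.16, 95% interval -0.091 to 0.64, adjusted p = 0.316 from edgeR), and it was 0.13 without control mouse 4, 0.17 without mAktDKO mouse 2 and 0.41 without control mouse 2. Summed slow fibre markers were at 1124, 1317 and 680 CPM in the mAktDKO mice and at 636, 884 and 607 CPM in the controls, and their part in the level of Esrrg was not tested.

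Ratios of counts within a mouse do not depend on the scaling between mice. They were computed for all 8 pairs of genes with the same role, a step added after the levels had been seen. The ratio of Ppargc1a to Ppargc1b was 4.21, 3.15 and 4.53 in mAktDKO mice and 2.30, 2.56 and 2.71 in controls, and the groups did not overlap although Ppargc1a alone overlapped. Esrra had 1.57, 0.996 and 1.07 counts for each count of Esrrg in mAktDKO mice and 2.13, 2.08 and 2.51 in controls. The log2 difference was 0.64 for the coactivators and -0.91 for Esrra to Esrrg. Esrrb to Esrrg was lower without overlap as well (log2 difference -1.15), whereas Esrra to Esrrb overlapped (0.24). Nrf1 to Gabpa (0.26) and the 3 pairs of mitochondrial factors (from -0.28 to 0.094) also overlapped. For each of the 3 pairs that did not overlap the two-sided exact permutation p was 0.1, the smallest that 3 mice against 3 allow, and 0.267 after Benjamini-Hochberg adjustment over the 8 pairs, so this test could not reach p under 0.05. Each of the 3 pairs holds a gene that did not overlap by itself (Ppargc1b, Esrra or Esrrb), and 31.1% of single genes did not overlap. The share among pairs of other genes was not computed.

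**Figure D3:**
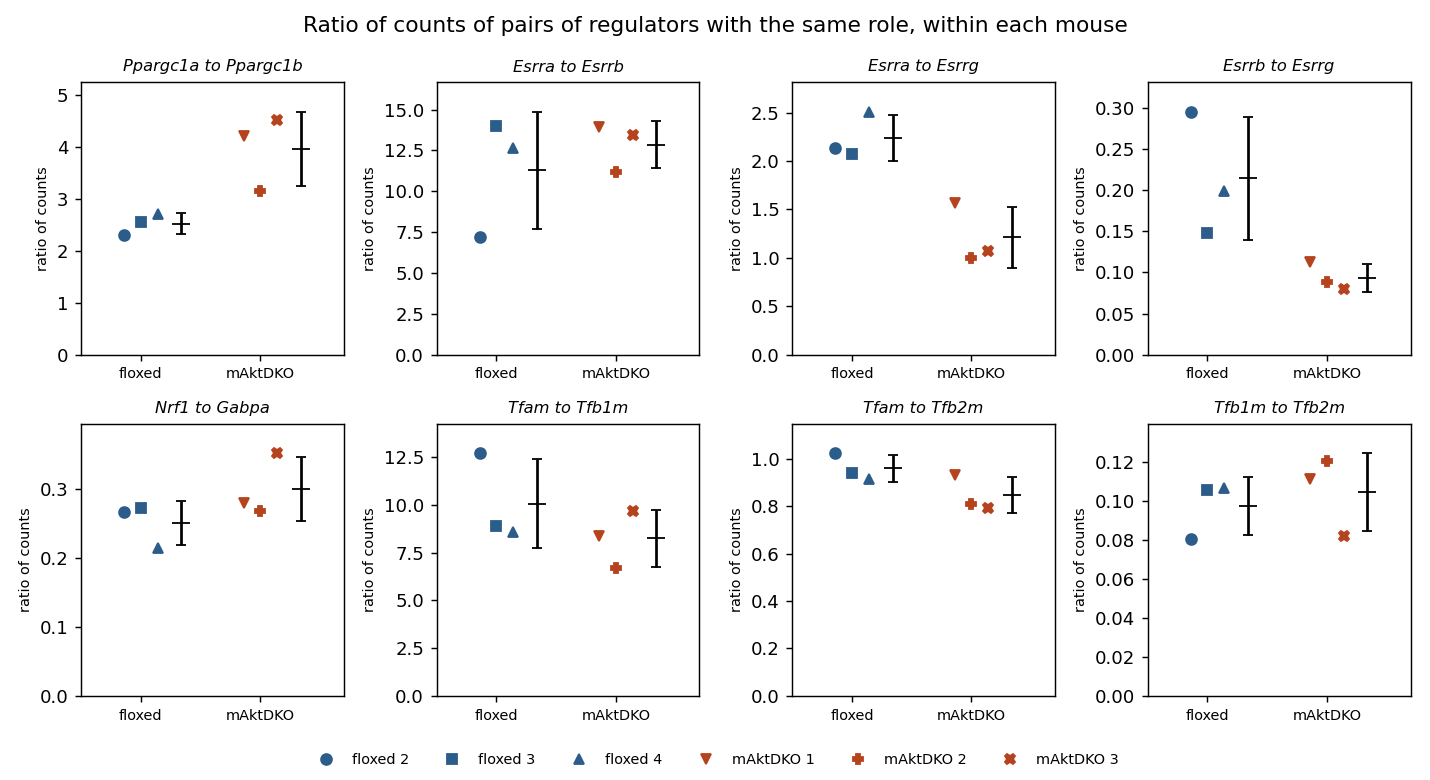
Ratio of the counts of 2 regulators with the same role in each mouse, with 1 point per mouse and bars for mean ± SD of 3 mice on axes that start at 0. The groups are separate for Ppargc1a to Ppargc1b, Esrra to Esrrg and Esrrb to Esrrg, and overlap in the other 5 panels.

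The nuclear factors that bind promoters of respiratory genes did not have lower means in mAktDKO mice. Nrf1 (chromosome 6, 30047985 to 30153458) was at 11.9, 13.5 and 14.9 CPM in mAktDKO mice and at 11.96, 11.7 and 8.92 CPM in controls. Here mAktDKO mice 2 and 3 were above every control and mouse 1 within their range. The log2 fold change was 0.31 (standard error 0.14, 95% interval -0.021 to 0.63, adjusted p = 0.227 from edgeR), and without control mouse 4, the lowest, it was 0.18. Gabpa (chromosome 16, 84834891 to 84863783) was at 42.6, 50.6 and 42.4 CPM and at 44.8, 43.3 and 41.7 CPM, a log2 fold change of 0.064 (standard error 0.094, 95% interval -0.15 to 0.28, adjusted p = 0.699 from edgeR). The groups overlapped, and the highest value was that of mAktDKO mouse 2. With library totals, where the median of all genes was 0.16, the log2 fold changes were 0.21 for Gabpa, 0.44 for Nrf1, 0.37 for Ppargc1a and 0.41 for Esrrg.

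Tfam, the packaging and transcription factor of mitochondrial DNA, was the mitochondrial factor whose groups did not overlap with TMM scaling. A promoter window of Tfam, from 250 bases before to 50 bases after a start that lies 284 bases inside the annotated gene (RefSeq, GRCm38.p6, the build also called mm10; chr10:71237995-71238294, minus strand), is printed because it held the core letters bound by GABP, shown in capitals, 47 bases before the start.
Tfam promoter: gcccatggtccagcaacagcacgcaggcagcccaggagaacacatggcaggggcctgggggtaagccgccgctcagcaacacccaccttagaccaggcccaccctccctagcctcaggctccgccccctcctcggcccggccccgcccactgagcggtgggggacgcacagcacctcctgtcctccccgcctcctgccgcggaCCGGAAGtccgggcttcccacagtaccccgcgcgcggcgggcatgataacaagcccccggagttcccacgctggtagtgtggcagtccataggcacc
Tfam (chromosome 10, 71225468 to 71238328) was at 34.6, 31.4 and 35.2 CPM in mAktDKO mice and at 45.4, 39.0 and 38.3 CPM in controls. All mAktDKO mice were below all controls, by a small margin between the highest mAktDKO and the lowest control mouse. The log2 fold change was -0.28 (standard error 0.097, 95% interval -0.50 to -0.060, adjusted p = 0.133 from edgeR). Beside it, the fast fibre markers had a median of -0.22. With library totals the groups overlapped and Tfam was at -0.14, or -0.30 relative to the median of all genes. With TMM scaling and without control mouse 2, the highest one, Tfam was at -0.20 (adjusted p = 0.253 from edgeR). Without mAktDKO mouse 2, the lowest one, it was at -0.23 (adjusted p = 0.388 from edgeR).

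Tfb1m (chromosome 17, 3519250 to 3557796), the ribosomal RNA methyltransferase, had between 51 and 78 counts in every mouse, or 4.12, 4.67 and 3.63 CPM in mAktDKO mice against 3.57, 4.38 and 4.46 CPM in controls. Its log2 fold change was 0.0070, and the 95% interval from -0.40 to 0.41 (edgeR, adjusted p = 0.986) was wider than for all but Esrrb. Tfb2m (chromosome 1, 179528052 to 179546305), the partner of the mitochondrial RNA polymerase, was at 37.1, 38.8 and 44.3 CPM in mAktDKO mice and at 44.3, 41.5 and 41.9 CPM in controls. The groups overlapped, with a log2 fold change of -0.089 (standard error 0.091, 95% interval -0.30 to 0.12, adjusted p = 0.568 from edgeR), and the log2 fold change was 0.046 with library totals, -0.18 without mAktDKO mouse 3 and -0.037 without mAktDKO mouse 1.

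To compare levels between genes, CPM was divided by the length in kilobases of the longest protein-coding transcript of GENCODE M21. In control mice Esrra was highest at 33.8 ± 4.10 CPM per kb (SD, n = 3), followed by Tfb2m at 17.4 ± 0.624 CPM per kb. Then came Ppargc1a (9.87), Tfam (9.82), Gabpa (8.68), Ppargc1b (6.93), Esrrg (6.37), Nrf1 (3.03), Tfb1m (2.95) and Esrrb (1.75). Neighbours whose ranges over the control mice overlapped were Ppargc1a and Tfam, Ppargc1b and Esrrg, Nrf1 and Tfb1m, and Tfb1m and Esrrb. In mAktDKO mice Esrra was first by this length at 21.7 ± 1.71 CPM per kb with Tfb2m second at 16.4 ± 1.54 CPM per kb. Esrrg (7.70) then stood above Ppargc1b (5.16), and Gabpa (9.07) above Tfam (8.09). The lengths are those of 1 annotation and not of the transcripts in these muscles: with merged exons Esrra was at 17.3 and Tfb2m at 15.2 CPM per kb in controls, and the order of the 3 lowest genes differed. In mAktDKO mice the first place itself changed with merged exons, where Tfb2m was at 14.3 ± 1.345 CPM per kb, Ppargc1a at 11.4 ± 2.77 and Esrra at 11.1 ± 0.873 (SD, n = 3 each).

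**Figure D4:**
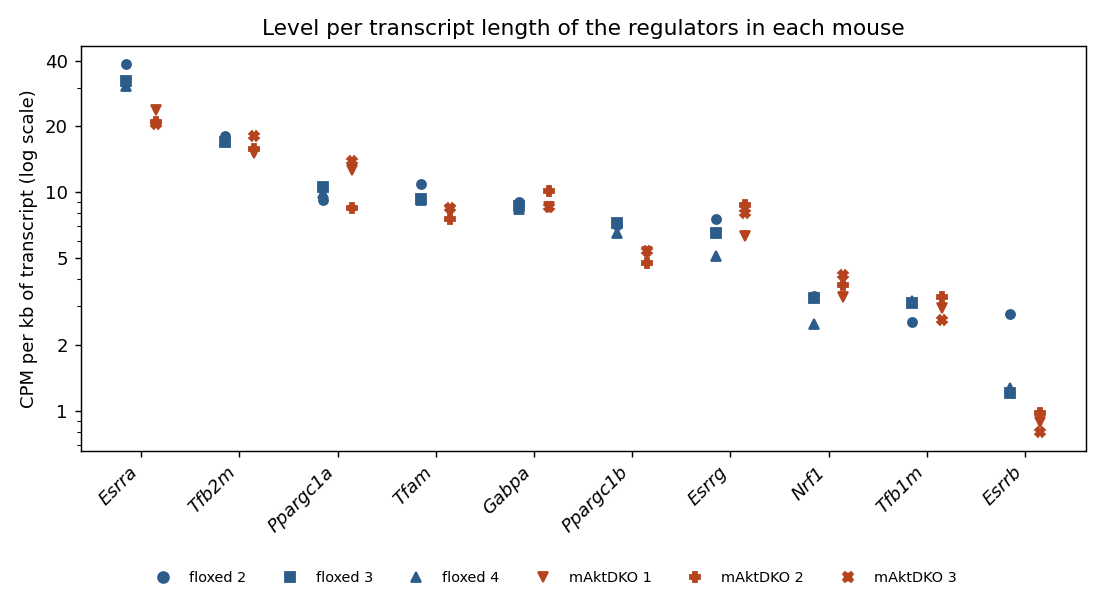
Level of each regulator per kilobase of its longest protein-coding transcript, on a log axis, with 1 point per mouse and genes ordered by the control mean. By this length Esrra is highest in both genotypes, at 33.8 CPM per kb in control and 21.7 CPM per kb in mAktDKO mice, whereas with merged exons Tfb2m is highest in mAktDKO mice.

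The genes whose log2 CPM, centred on its mean, followed a regulator most closely over the 6 mice were named by the mean absolute difference. For Esrra these were Fam173a (difference 0.034), Fitm2 (0.037) and Mroh1 (0.043), where the median over all genes tested was 0.34. Fitm2 encodes a protein of lipid droplet formation. Nearest to Tfam were Abcf2 (0.012), Cand2 (0.016) and Klhl40 (0.018), against a median of 0.20, and Klhl40 is a muscle protein that stabilises thin filaments. Ppargc1a had no gene as near, with Clec1a (0.063), Mitd1 (0.070) and Arhgap22 (0.074) against a median of 0.27. With 6 mice and 12892 genes, such nearness is a description of these libraries.

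Among 27 partners and modulators of PGC-1 and the ERRs, 10 had a negative and 17 a positive log2 fold change, and 0 passed an adjusted p of 0.05 with edgeR. At an unadjusted p under 0.05, 3 were lower and 6 higher, where 13.1% of all genes were lower and 11.4% higher. The median was 0.11, or 0.24 with library totals, 0.013 without mAktDKO mouse 3, 0.066 without mAktDKO mouse 2 and 0.067 without control mouse 3. Tfeb, a transcription factor of lysosomal genes that also drives Ppargc1a, was at 35.6, 32.8 and 35.8 CPM in mAktDKO mice and at 61.9, 44.4 and 48.6 CPM in controls (log2 fold change -0.57, standard error 0.12, adjusted p = 0.0573 from edgeR). Perm1, a muscle regulator induced by PGC-1 and ERR, was at 224.8, 225.8 and 229.4 CPM and at 317.9, 273.6 and 266.8 CPM (log2 fold change -0.34, adjusted p = 0.0799 from edgeR). Both were below the controls in every mAktDKO mouse, and DESeq2 gave adjusted p of 0.00320 for Tfeb and 0.0164 for Perm1. With edgeR, Tfeb was at 0.0368 with no filter and at 0.0496 with at least 10 counts in every mouse. Ncoa1, a nuclear receptor coactivator, was above them in every mAktDKO mouse (log2 fold change 0.26, adjusted p = 0.103 from edgeR). With library totals Ncoa1 was at 0.40 (adjusted p = 0.0471 from edgeR) and Perm1 at -0.20. The log2 fold change of the third PGC-1 family member, Pprc1, was 0.060 and that of the corepressor Nrip1 was -0.034.

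Of the 25 genes for transcription and replication of mitochondrial DNA, 24 were tested, 16 with a negative log2 fold change (median -0.082 with TMM, 0.060 with library totals and -0.042 without control mouse 2). At an adjusted p under 0.05 by edgeR, 1 was lower and 0 were higher (0.915% and 0.264% of all genes), and at an unadjusted p under 0.05, 5 were lower and 1 higher (13.1% and 11.4%). The 1 gene was Endog, a mitochondrial endonuclease, at 22.2, 17.0 and 19.5 CPM in mAktDKO mice and 32.4, 29.1 and 28.0 CPM in controls (log2 fold change -0.61, standard error 0.12, adjusted p = 0.0482 from edgeR). Polrmt, the mitochondrial RNA polymerase that works with Tfam and Tfb2m, was at 17.6, 19.1 and 15.6 CPM and at 28.8, 22.7 and 23.8 CPM. It lay below the controls in every mAktDKO mouse (log2 fold change -0.53, standard error 0.12, adjusted p = 0.0626 from edgeR). Mpv17, an inner membrane protein needed to maintain mitochondrial DNA, lay above them (log2 fold change 0.50, adjusted p = 0.0539 from edgeR). Its adjusted p was between 0.0466 and 0.0491 with library totals, with either other filter and without control mouse 4, and that of Polrmt was 0.0481 with no filter (edgeR). Transcripts of the mitochondrial genome itself were not analysed here.

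Genes for processing and stability of mitochondrial RNA had a median log2 fold change of -0.22 (-0.072 with library totals), with 19 of 23 tested genes negative. At an adjusted p under 0.05 by edgeR, 2 were lower and 0 higher (0.915% and 0.264% of all genes), and at an unadjusted p under 0.05, 8 were lower and 1 higher (13.1% and 11.4%). Lrpprc, which stabilises mitochondrial messenger RNA, was at 113.7, 110.5 and 115.5 CPM in mAktDKO mice and at 169.3, 157.8 and 140.1 CPM in controls (log2 fold change -0.46, standard error 0.088, adjusted p = 0.0482). Mrm1, a methyltransferase of mitochondrial ribosomal RNA, fell by 0.67 on the log2 scale (adjusted p = 0.0474), and Fastk, a regulator of mitochondrial RNA, was at -0.47 (adjusted p = 0.0585, all from edgeR).

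Most targets of the regulators had negative values. Of 20 targets of PGC-1 and the ERRs, 19 had a negative log2 fold change (median -0.27), 3 were lower at an adjusted p under 0.05 by edgeR and 0 higher, where 0.915% of all genes were lower. Mb, myoglobin, the oxygen store of oxidative fibres, was at 811, 769 and 895 CPM in mAktDKO mice and at 2821, 1783 and 1756 CPM in controls (log2 fold change -1.36, standard error 0.18, adjusted p = 0.0206 from edgeR). Every mAktDKO mouse was far below every control, and leaving out control mouse 2 gave -1.10. Ckmt2, the mitochondrial creatine kinase of muscle, fell by 0.70 (adjusted p = 0.0394) and Uqcrfs1, the iron-sulfur subunit of complex III, by 0.53 on the log2 scale (adjusted p = 0.0474, both from edgeR). At an unadjusted p under 0.05, 12 of the 20 were lower and 0 higher (13.1% and 11.4% of all genes), among them Fndc5 (log2 fold change -0.61), Sirt3 (-0.57), Slc25a4 (-0.47) and Ndufs1 (-0.41), whose adjusted p from edgeR lay between 0.0562 and 0.1001. The values nearest 0 were 0.051 for Vegfa, -0.062 for Sod2 and -0.069 for Pdk4.

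Of 19 targets of NRF1 and GABP, 18 had a negative log2 fold change (median -0.26), and 3 were lower at an adjusted p under 0.05 by edgeR, beside 0.915% of all genes. At an unadjusted p under 0.05, 12 of the 19 were lower and 0 higher, beside 13.1% and 11.4%. Alas1, the first enzyme of haem synthesis, was at 84.9, 82.4 and 82.9 CPM in mAktDKO mice and at 130.3, 129.3 and 118.3 CPM in controls (log2 fold change -0.59, standard error 0.076, adjusted p = 0.0180 from edgeR). The spread within each group was small beside the distance between them. Cox4i1, a subunit of cytochrome c oxidase, fell by 0.56 (adjusted p = 0.0396) and its copper chaperone Cox17 by 0.53 on the log2 scale (adjusted p = 0.0474, both from edgeR). Cycs, cytochrome c, the classic NRF1 target, was the 1 positive value at 0.068. With library totals the medians of the target lists were -0.14 and -0.12, and their distances from the all-gene median were -0.29 and -0.27 with either scaling. With TMM the fast fibre markers had a median of -0.22, and their part in the level of the targets was not tested. Over the lists, 9 genes passed an adjusted p of 0.05 with edgeR. All 9 also did so with DESeq2 (highest adjusted p 0.0151), with DESeq2 size factors, with no rounding, with either other filter and without control mouse 4. DESeq2 gave adjusted p under 0.05 to Polrmt (0.0162), Mpv17 (0.0386) and Fastk (0.00421) as well. None of the 9 did so without mAktDKO mouse 1, 2 or 3 (lowest adjusted p 0.0792), and without control mouse 3 only Mb did. Endog, Lrpprc, Mrm1, Uqcrfs1 and Cox17 lost the call with library totals and without control mouse 2, and Endog and Lrpprc with upper-quartile scaling.

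**Figure D5:**
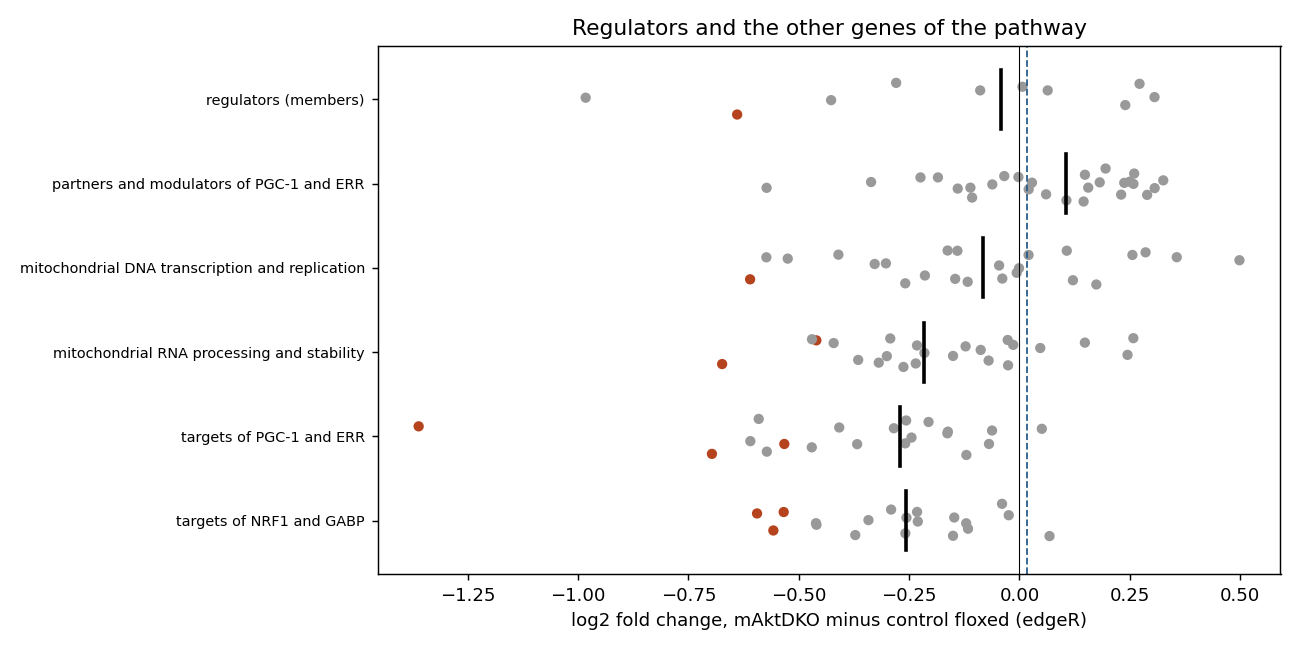
Log2 fold change (edgeR) of each tested gene of the regulators and of the 5 lists of other pathway genes, in colour where the adjusted p is under 0.05, with a black bar at each list's median and a dashed line at the median of all genes tested. The medians are -0.041 for the regulators, -0.27 for targets of PGC-1 and ERR and -0.26 for targets of NRF1 and GABP.

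Promoter sequences were searched on both strands for 3 sets of letters: GCGCA, any base and GCGC for NRF1, CCGGAAG for GABP and AAGGTCA for the ERRs. A window runs from 250 bases before to 50 after a RefSeq start. Of all 32851 windows, 4.603% held the NRF1 letters, 8.86% the GABP letters and 4.72% the ERR letters. Windows were given for 9 of the 10 regulators, and of these genes 2 (Gabpa and Tfam) held the GABP letters and 0 the others. In the counts by gene, listed genes without a window were left out. All genes here means the 27025 genes with a window, whether or not they passed the filter on low counts. By gene, the GABP letters were in 10 of 21 genes for mitochondrial DNA (47.6%), in 9 of 24 for mitochondrial RNA (37.5%) and in 7 of 13 targets of NRF1 and GABP (53.8%), against 9.93% of all genes. They were in 2 of 25 partners and modulators (8%) and in 2 of 15 targets of PGC-1 and ERR (13.3%). The NRF1 letters were in 3 of 13 targets of NRF1 and GABP (23.1%), 3 of 21 genes for mitochondrial DNA (14.3%), 3 of 24 for mitochondrial RNA (12.5%), 3 of 25 partners (12%) and 0 of 15 targets of PGC-1 and ERR, against 5.19% of all genes. The ERR letters were in 1 of 15 targets of PGC-1 and ERR (6.67%, against 5.38% of all genes), 2 of 25 partners (8%) and 1 gene in each of the other lists. A match is a description of letters and not a bound site.

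The windows of 3 genes at lower levels in all mAktDKO mice, with TMM scaling, are printed to show the arrangements, with matches in capitals and each read along its own gene. Polrmt (chr10:79746532-79746831, minus strand) held the GABP letters on the opposite strand 43 bases before the start and 2 overlapping NRF1 matches at the start. Alas1 (chr9:106247905-106248204, minus strand) held 2 NRF1 matches that began at bases 1 and 30 counted from the annotated start as base 1. A second window of Alas1 lies 224 bases further into the gene and holds the same matches before its start. Perm1 (chr4:156215677-156215976, plus strand) held the ERR letters on the opposite strand 202 bases before a start 12665 bases inside the annotated gene.
Polrmt promoter: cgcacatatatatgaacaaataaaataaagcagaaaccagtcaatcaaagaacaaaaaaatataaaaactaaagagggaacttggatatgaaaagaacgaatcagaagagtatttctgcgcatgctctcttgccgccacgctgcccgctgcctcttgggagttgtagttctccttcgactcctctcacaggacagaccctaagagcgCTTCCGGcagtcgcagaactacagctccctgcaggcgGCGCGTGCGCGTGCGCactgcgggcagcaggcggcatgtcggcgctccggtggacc
Alas1 promoter: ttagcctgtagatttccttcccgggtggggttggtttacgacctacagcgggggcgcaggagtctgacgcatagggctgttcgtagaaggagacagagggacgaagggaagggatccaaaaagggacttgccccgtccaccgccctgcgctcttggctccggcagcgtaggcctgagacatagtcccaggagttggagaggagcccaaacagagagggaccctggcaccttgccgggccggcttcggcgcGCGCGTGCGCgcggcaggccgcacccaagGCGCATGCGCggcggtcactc
Perm1 promoter: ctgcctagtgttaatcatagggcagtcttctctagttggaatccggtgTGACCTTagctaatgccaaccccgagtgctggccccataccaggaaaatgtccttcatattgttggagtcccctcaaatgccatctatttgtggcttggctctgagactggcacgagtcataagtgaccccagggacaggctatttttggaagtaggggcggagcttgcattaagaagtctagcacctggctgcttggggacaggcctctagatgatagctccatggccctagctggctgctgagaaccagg
Beside these sequences, the log2 fold changes were -0.53 for Polrmt, -0.59 for Alas1 and -0.34 for Perm1, while Nrf1 was at 0.31, Gabpa at 0.064 and Esrra at -0.64. Other listed genes with the same letters went both ways. Slirp and Hcfc1 (GABP letters) and Gabpb1 (NRF1 letters) had positive values, and Mrm1 and Fastk (GABP letters) had negative ones. Whether the letters go with lower levels was not tested.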

How the data were processed

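Libraries of EDL muscle came from 3 mice per genotype. The authors depleted ribosomal RNA, prepared strand-specific libraries, aligned paired-end reads to mm10 with STAR (2.6.1b per the processing notes, while the methods name another version) and quantified genes with RSEM 1.3.1. Their deposited table holds estimated counts (expected counts) with no scaling. The annotation behind it is not given in the sources used here. Of the members' 60 values, 59 were whole within 1e-9.

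The mAktDKO columns carry their labelled numbers. Control columns are numbered 2 to 4 and the labels 1 to 3, so these columns stand for the group. Each labelled sample was taken as 1 mouse, which the labels do not state sample by sample, and p-values measure the spread between these samples.

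Counts were rounded, filtered with filterByExpr (minimum count 10), scaled by TMM and fitted over all 12892 genes with edgeR 4.0.16's quasi-likelihood test in R 4.3.3, with Benjamini-Hochberg adjustment. The threshold of 0.01 is the adjusted p that the methods give for DESeq2; their additional cut on a q value was not applied. The standard error is the log2 fold change divided by the square root of F. Alternatives were DESeq2 1.42.0, other scalings and filters, no rounding, an adjusted p of 0.05 and leaving out each mouse. Ratios within a mouse, group overlap with library totals and leaving Hbb-bs out of the erythroid markers were added after seeing the data. Of these steps, the edgeR quasi-likelihood fit was tested on simulated counts. Named genes are the members, the Akt genes, the 3 genes of smallest p in each of 5 pathway lists and, where there were others at an adjusted p under 0.05, those too, and the 3 genes most like Ppargc1a, Esrra and Tfam; the few others were named after their values were seen. The members and lists were chosen with earlier results of these data known. Counts of Mrm2 and Mrm3 were not analysed here.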

Additional observations from a re-analysis of the deposited data

How the results depend on the processing

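No paired analysis was possible because nothing pairs an mAktDKO mouse with a control mouse, and the control columns are numbered otherwise than the labels. The number of genes called was 341 with DESeq2's Wald test, 32 with no filter and 152 at an adjusted p under 0.05, against 3 otherwise, and 0 to 8 without any one mouse; it was 0 when any mAktDKO mouse was left out (2441, 1871 and 2794 genes at an unadjusted p under 0.05 with edgeR) and 8 without control mouse 2. The number of regulators called was 1 with DESeq2 and 1 at an adjusted p under 0.05 (both Esrra), and 0 to 0 without any one mouse. The median of the regulators was 0.097 with library totals and from -0.078 to -0.013 without any one mouse. That scaling moved the median of all genes to 0.16, and the regulators' median minus it was -0.059 against -0.058 with TMM. The cause of these differences was not tested. Some values near 0 changed sign: Tfb1m was at -0.0024 with DESeq2, Tfb2m at 0.046 with library totals, and without one mouse Gabpa was from -0.025 to 0.10, Tfb1m from -0.091 to 0.075 and Mitd1 from -0.038 to 0.37. Leaving out single mice kept Esrra between -0.71 and -0.54, and the remaining alternatives gave -0.65 to -0.50 with adjusted p from 6.4e-05 (DESeq2) to 0.0573 (edgeR, library totals). With 3 mice in each group, Esrrb and Tfb1m had few counts and the widest 95% intervals of the regulators. For Esrrb, control mouse 2 also stood apart, with 171 counts against 71 and 72 in the other controls. What set the width of these intervals was not tested.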
